A study of Homo sapiens with 18 samples.

Results

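The genes of DNA replication and mitosis were examined as a set of 46 named genes, chosen by symbol from those that copy DNA, drive the cell through the cell cycle and part the chromosomes. Symbols were matched to the Ensembl gene IDs of the count tables, which found 45 of the 46 among 57905 Ensembl genes. The remaining member, UHRF1, was not analysed here. The members fall into 9 roles, from the licensing of replication origins to the centromere, and include C1orf112, a partner of the FIGNL1 recombination factor.

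RNA of BE(2)-m17 cells, a line from a human neuroblastoma, was sequenced in 3 experiments to ask which transcripts change when the transporter ABCC1 is overexpressed. Each experiment held 3 libraries of empty vector control cells, which carried pSBbi-Hyg-APP and pSBbi-Pur, and 3 libraries of ABCC1-overexpressing cells, which carried pSBbi-Hyg-APP and pSBbi-Pur-ABCC1(WT), 18 libraries in all. Both lines therefore carried an APP transgene, and both were stable lines made with transposable vectors. Cells were plated at 14000000 per well and lysed on day 4. The labels number the experiments and do not say which of the repeats used cryopreserved cells and which used newly transfected cells, so they are called the first, the second and the third experiment. By the study's methods, the first was made with a poly(A) kit and the others with a total RNA kit on another instrument, so kit and instrument cannot be told apart from the experiment, and levels were compared only within one. Cryopreserved cells may be of the same stable lines as the first experiment, so the 3 experiments need not be 3 independent pairs of lines. The study's methods have each line plated weekly, and the labels do not tie a library to a week. The libraries of a group are of 1 stable line as far as the labels say, so p-values measure only the spread between these libraries, which may be partly technical.

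Cell cycle genes are switched on in waves. E2F factors raise the licensing and DNA synthesis genes before and during S phase, and complexes that bind CCAAT boxes and the cell cycle homology region hold back or raise the mitotic genes until G2 and M phase. Cyclins then activate the cyclin-dependent kinases, the spindle checkpoint holds the chromosomes until all are attached, and CDC20 starts anaphase by activating the anaphase-promoting complex. Neuroblastoma lines such as this one carry high MYCN and divide continuously in culture.

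Since these elements lie in promoters of this class, the 250 bases before the transcription start were read from RefSeq (GRCh38.p14, a later build than the GRCh37 of the counts, used here for sequence only). The table held 46 such promoters for 37 of the 45 members, with C1orf112 matched through its synonym. Of these, 4 are shown. CCNB2 and CDC20 were lower in the ABCC1-overexpressing cells in 2 experiments, MKI67 carries the same words and was not called in any, and MCM10 alone was called higher for the mean of the experiments. CCNB2 is read from chr15:59104896-59105145 (plus strand), CDC20 from chr1:43358731-43358980 (plus strand), MKI67 from chr10:128126424-128126673 (minus strand) and MCM10 from chr10:13161308-13161557 (plus strand), each printed in the direction of the gene. Capitals mark CCAAT or its reverse complement ATTGG, and TTTGAA or its reverse complement TTCAAA, the core of the cell cycle homology region. In MKI67, 2 of these words share a base.
CCNB2: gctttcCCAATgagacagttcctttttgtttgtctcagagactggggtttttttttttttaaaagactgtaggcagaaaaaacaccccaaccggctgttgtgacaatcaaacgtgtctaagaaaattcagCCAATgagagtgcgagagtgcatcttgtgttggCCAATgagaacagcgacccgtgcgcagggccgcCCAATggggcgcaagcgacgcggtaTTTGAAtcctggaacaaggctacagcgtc
CDC20: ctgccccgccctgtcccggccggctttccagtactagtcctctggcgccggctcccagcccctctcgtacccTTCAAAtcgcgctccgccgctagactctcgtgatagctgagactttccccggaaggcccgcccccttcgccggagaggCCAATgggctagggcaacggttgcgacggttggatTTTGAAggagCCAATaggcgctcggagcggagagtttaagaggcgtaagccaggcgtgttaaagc
MKI67: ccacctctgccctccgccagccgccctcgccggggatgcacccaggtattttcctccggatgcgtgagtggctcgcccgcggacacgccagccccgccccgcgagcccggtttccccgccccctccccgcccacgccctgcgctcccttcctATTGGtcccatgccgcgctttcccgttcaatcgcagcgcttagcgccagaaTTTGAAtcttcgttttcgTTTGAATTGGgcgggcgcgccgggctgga
MCM10: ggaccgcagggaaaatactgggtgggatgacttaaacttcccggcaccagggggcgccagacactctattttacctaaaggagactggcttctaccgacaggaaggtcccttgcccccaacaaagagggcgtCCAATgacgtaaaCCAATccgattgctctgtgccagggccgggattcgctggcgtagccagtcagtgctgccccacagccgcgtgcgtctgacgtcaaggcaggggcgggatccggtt

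CCNB2 held 4 CCAAT words and a TTTGAA that began 29 bases before the start, and CDC20 held 2 of each. MKI67 also held 2 of each, with its TTTGAA words 47 and 29 bases before the start. MCM10 held 2 CCAAT words and no TTTGAA. The word CCAAT on either strand was present in 27 of the 37 members (73%) and in 37% of 27305 genes with a promoter in the table. TTTGAA on either strand was present in 10 of 37 (27%) against 16.1% of all. One of the 4 E2F words (TTGGCGC or TTCCCGC or TTCGCGC or TTGCCGC, either strand) was present in 15 of 37 (40.5%) against 13% of all. By role, TTTGAA was found in 0 of 9 licensing genes and in 3 of 4 centromere and chromosome structure genes, while E2F words were found in 5 of 9 licensing genes, in 4 of 5 DNA synthesis genes and in 0 of 3 spindle genes. These matches describe the letters of the window and were not tested.

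The counts of a library summed to between 27.4 and 57.9 M read pairs in the first experiment, between 19.6 and 31.0 M in the second and between 8.87 and 13.3 M in the third. The typical variation between replicates (the biological coefficient of variation) was 5.67%, 35.3% and 19.7%. Counts on the codon-optimized ABCC1 insert were between 0 and 15 in the empty vector libraries and between 51035 and 594404 in the ABCC1 libraries, so that each library matched its label. The 14 adrenergic neuroblastoma markers had summed levels of 14635 to 15639 CPM in the empty vector cells and 12505 to 13725 CPM in the ABCC1-overexpressing cells of the first experiment, and of 8790 to 10376 against 9435 to 9925 and of 9990.0 to 12694 against 10236 to 10371 CPM in the second and the third. The 5 blood cell markers summed to at most 0.255 CPM in the first. Reads on 372 olfactory receptor genes, which these cells should not transcribe, measured the background of reads that belong to no transcript. In the first experiment they gave 0.00483 ± 0.000395 CPM per kilobase in the empty vector cells and 0.00406 ± 0.000291 in the ABCC1-overexpressing cells (SD, n = 3). They gave 0.619 ± 0.127 against 0.287 ± 0.152 in the second experiment and 1.64 ± 0.24 against 1.19 ± 0.25 in the third. The blood markers moved with it, from 9.14 to 13.5 CPM in the empty vector cells to 1.76 to 7.0 CPM in the second experiment, and from 28.5 to 35.5 CPM to 16.9 to 24.1 CPM in the third. The 9 fibroblast and mesenchymal markers summed to 340.2 to 347 CPM against 424 to 436 CPM in the first. They summed to 172 to 203 against 159 to 187 CPM in the second and to 246 to 259 against 214 to 249 CPM in the third.

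In the first experiment, most members were lower in the ABCC1-overexpressing cells. Of 45 members tested, 32 fell, none rose and 13 did not pass an adjusted p of 0.05 (edgeR, quasi-likelihood test, p-values adjusted by Benjamini-Hochberg over 16995 genes). Among all genes tested, 19.7% were called lower and 17.9% higher. The changes were small. Called members kept between 0.66 and 0.93 of their control level, and the median log2FC of the 45 was −0.21, beside 0.0074 for all genes tested. At an unadjusted p under 0.05, 33 members were lower and 1 was higher, against 23.7% and 23% of all genes. The groups were apart with ABCC1 below in 34 members, apart with ABCC1 above in 2 and overlapped in 9, against 25.7% below and 24.7% above among all genes tested. As a share of all counts in this experiment, the members took 0.816 to 0.837% of the empty vector libraries and 0.718 to 0.753% of the ABCC1 libraries. The shares overlapped in the repeats, with 0.372 to 0.490% against 0.340 to 0.406% in the second and 0.499 to 0.594% against 0.494 to 0.542% in the third. In bulk RNA, fewer cells in cycle and less RNA per cell cannot be told apart.

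**Figure D1:**
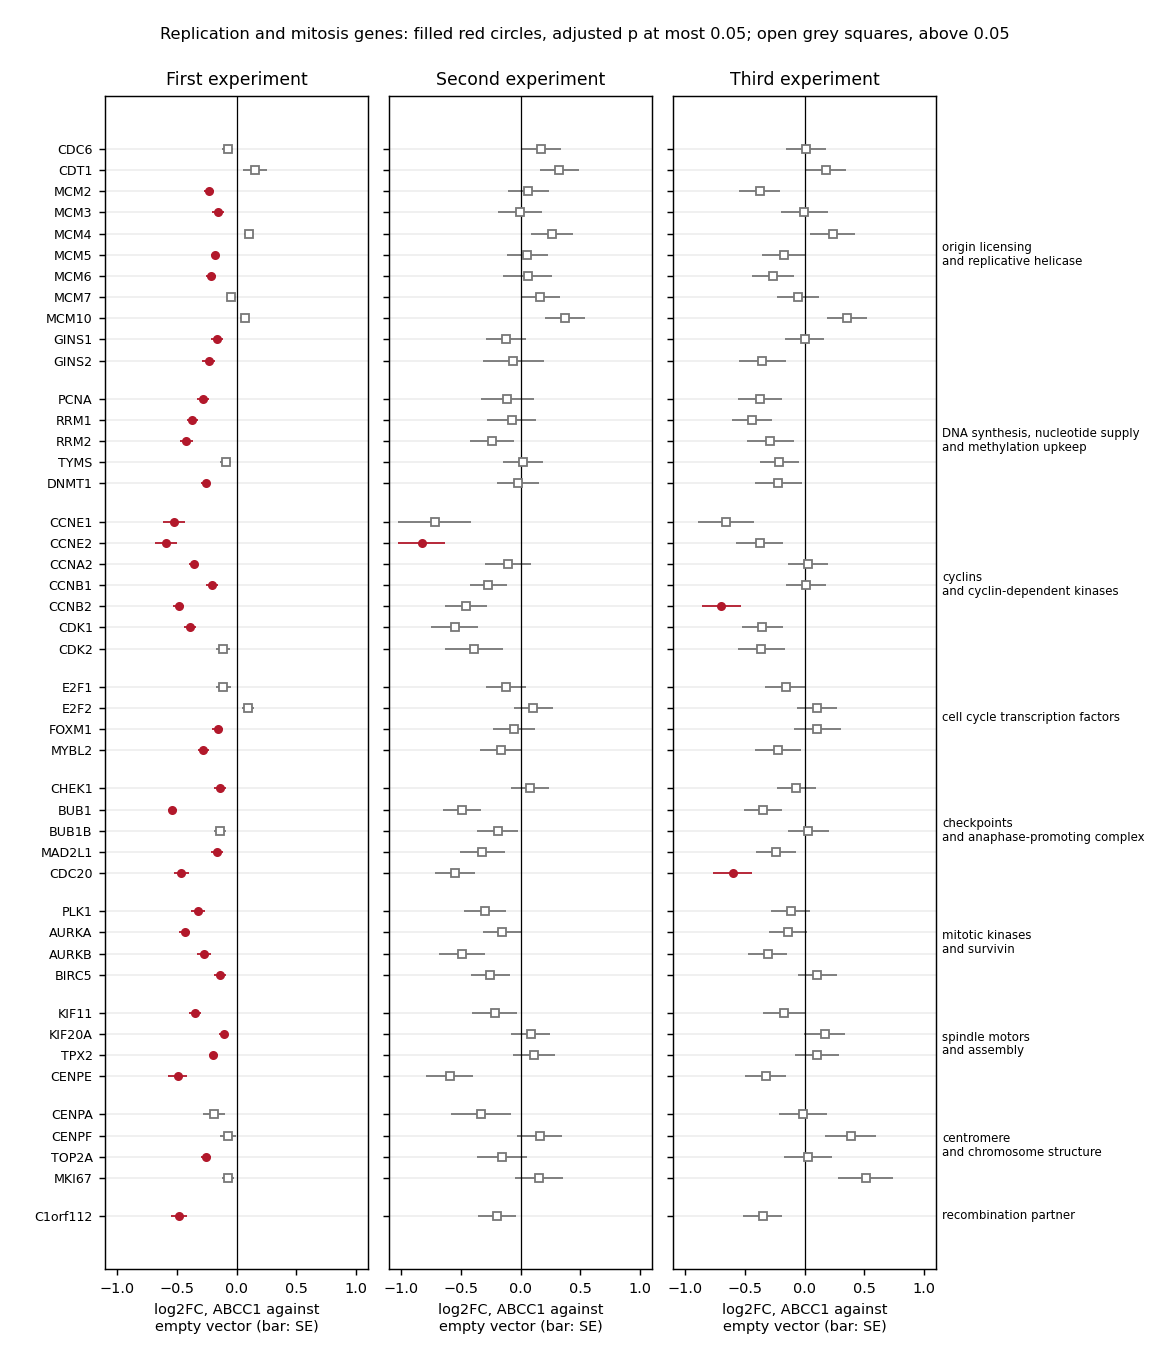
The log2FC of each of the 45 members (rows, grouped by role) in the 3 experiments, with its standard error; filled red circles passed an adjusted p of 0.05 and open grey squares did not. In the first experiment 32 members lie left of 0 as red circles, while in the second and the third, where the bars are longer, 1 and 2 do.

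This count depended on how the experiment was fitted. The same contrast taken from the fit of all 18 libraries, in which the spread, the scaling and the 46225 genes tested were all different, called 0 of the 45 members (816 of all genes were lower), and the median log2FC of the members was −0.11. With the olfactory receptor level as a covariate 15 members were lower, and 1092 of all 16995 genes. Leaving out any 1 of the 6 libraries left between 25 and 34 lower.

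Of the cyclins and their kinases, 6 of 7 were lower in the first experiment. Cyclins E1 and E2 partner CDK2 at the entry to S phase, cyclin A2 serves S phase and G2, and cyclins B1 and B2 partner CDK1 in mitosis. CCNE2 (ENSG00000175305) measured 8.76, 10.1 and 10.2 CPM in the empty vector cells and 6.21, 7.01 and 6.05 CPM in the ABCC1-overexpressing cells of the first experiment, a log2FC of −0.60 ± 0.09 (SE; adjusted p = 5.70e-04). The groups do not overlap. In the second experiment CCNE2 had 15.2, 20.7 and 29.7 CPM against 12.9, 11.5 and 12.5 CPM (−0.83 ± 0.20, adjusted p = 0.0354), and in the third 13.2, 13.9 and 17.6 CPM against 13, 9.79 and 11.6 CPM (−0.38 ± 0.19, adjusted p = 0.347). The ABCC1 libraries lay below the controls in every experiment. The call in the second experiment held in 10 of 14 alternatives and was lost with the olfactory receptor level as a covariate, and without empty vector replicate 2 or 3 or ABCC1 replicate 2. Genes that share exon bases with CCNE2, INTS8 among them, cover 37.1% of its exons, and read pairs there are not assigned to either gene by default counting. CCNE2 also had the lowest level per length of all members in the first experiment.

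CCNB2 (ENSG00000157456, chr15:59397277-59417244 in GRCh37) stood at 86.6, 84.1 and 88.2 CPM in the empty vector cells of the first experiment and at 62.7, 63.5 and 58.9 CPM in the ABCC1-overexpressing cells (−0.49 ± 0.05, adjusted p = 1.76e-05). The third experiment gave 39.7, 56.1 and 39.4 CPM against 26.9, 26.6 and 29.8 CPM (−0.70 ± 0.16, adjusted p = 0.00487). In both, every ABCC1 library was below every control. The call in the third held in 13 of 14 alternatives and was lost without ABCC1 replicate 2 (adjusted p = 0.0845). In the second experiment the values were 21.8, 30.0 and 35.8 CPM and 18.6, 21.9 and 23.4 CPM (−0.46 ± 0.18, adjusted p = 0.146), and the groups overlapped through the lowest control. CCNE1 measured 5.91, 6.57 and 6.38 CPM against 4.05, 4.53 and 4.53 CPM in the first experiment, where it fell, 5.39, 5.55 and 7.18 against 3.21, 3.34 and 4.42 CPM in the second and 10.6, 9.34 and 11.8 against 7.35, 5.58 and 7.10 CPM in the third. Its groups did not overlap in any experiment, and its adjusted p was 0.00138, 0.183 and 0.112. The olfactory receptor level per kilobase came to 24.8% of that of CCNE1 in the empty vector cells of the second experiment and to 38.2% in those of the third, and to 21.5 and 47.8% in the ABCC1-overexpressing cells. Its part in these values was not tested. CCNE1 was picked out for its mean effect after the values were seen, as were CDK1, AURKB and MCM10 below.

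CDK1, the kinase that drives mitosis, had 159, 162 and 165 CPM against 124, 132 and 115 CPM in the first experiment (−0.39 ± 0.05, adjusted p = 1.79e-04). It had 146, 169 and 256 CPM against 137, 123 and 129 CPM in the second (−0.55 ± 0.20, adjusted p = 0.120) and 59.7, 78.1 and 87.8 CPM against 52.0, 52.1 and 72.5 CPM in the third (−0.35 ± 0.17, adjusted p = 0.304). The groups overlapped in the third experiment alone. CCNB1 showed the smallest called fall of the role in the first experiment, from 108, 108 and 104 CPM to 88.1, 89.6 and 98.7 CPM (−0.21 ± 0.05, adjusted p = 0.00716). Its values were 41.0, 51.1 and 49.6 CPM against 38.9, 38.1 and 40.6 CPM in the second and 57.2, 67.5 and 53.2 CPM against 50.6, 64.0 and 64.6 CPM in the third, where the groups overlapped and the log2FC was 0.01. Thus cyclin B1 and cyclin B2 had unlike values in the third experiment, a difference between the 2 genes that was not tested. CCNA2 fell in the first experiment (−0.36 ± 0.04, adjusted p = 4.07e-05) and had log2FC values of −0.10 and 0.03 in the others, and CDK2 was not called in any.

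Among the 5 checkpoint and anaphase-promoting complex genes, 4 fell in the first experiment. CDC20 (ENSG00000117399, chr1:43824626-43828874 in GRCh37), the activator of the anaphase-promoting complex, went from 91.2, 86.3 and 84.5 CPM to 59.2, 62.0 and 68.9 CPM (−0.46 ± 0.06, adjusted p = 1.68e-04). In the third experiment it went from 47.5, 62.1 and 47.4 CPM to 31.4, 34.7 and 37.4 CPM (−0.60 ± 0.16, adjusted p = 0.0192). In the second it had 25.2, 32.0 and 36.6 CPM against 18.8, 20.6 and 24.7 CPM (−0.55 ± 0.17, adjusted p = 0.0808). Every ABCC1 library lay below every control library in each of the 3 experiments. Among 14 alternatives, the call of CDC20 in the third experiment held in 7, with adjusted p values of up to 0.156, and was lost with RLE size factors, in the 18-library fit and without any 1 of 5 libraries, the exception being empty vector replicate 2.

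BUB1, a kinase of the spindle checkpoint, had the largest fall of this role in the first experiment, from 79.1, 79.9 and 80.5 CPM to 55.1, 55.4 and 54.4 CPM (−0.54 ± 0.04, adjusted p = 3.43e-06). It measured 24.3, 32.7 and 31.8 CPM against 21.9, 21.7 and 19.6 CPM in the second experiment (adjusted p = 0.0953) and 40.0, 48.2 and 40.8 CPM against 27.6, 35.2 and 38.5 CPM in the third (adjusted p = 0.276). The groups did not overlap in any of the 3. Per kilobase, the olfactory receptor level came to 11.9% of that of BUB1 in the empty vector cells of the second experiment and to 22.3% in the third. In the ABCC1-overexpressing cells it came to 8.86 and 22.5%, and its part in these values was not tested. CHEK1, the kinase that answers stalled replication, was the smallest called change of the role, with 83.2, 81.3 and 88.3 CPM against 78.5, 78.7 and 72.3 CPM (−0.14 ± 0.05, adjusted p = 0.0489), and this call held in 3 of 14 alternatives. In the repeats CHEK1 had 37.2, 47.9 and 44.5 against 48.3, 42.8 and 45.6 CPM and 46.3, 66.1 and 48.9 against 50.1, 50.4 and 53.3 CPM, with overlapping groups. MAD2L1, another checkpoint protein, fell in the first experiment (−0.16 ± 0.05, adjusted p = 0.0281), a call that held in 9 of 14 alternatives. BUB1B did not pass (−0.14, adjusted p = 0.0611).

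All 4 mitotic kinases and survivin fell in the first experiment, and none was called in the repeats. AURKA, the kinase of the spindle poles, went from 66.9, 67.2 and 65.7 CPM to 49.7, 51.2 and 47.2 CPM (−0.43 ± 0.05, adjusted p = 4.76e-05). In the repeats it had 18.2, 19.5 and 19.6 against 16.4, 16.6 and 18.3 CPM and 27.5, 27.9 and 27.8 against 26.2, 27.6 and 22.0 CPM, and the groups overlapped in both. BIRC5, which encodes survivin, changed least, from 56.5, 55.1 and 53.4 CPM to 51.0, 51.2 and 48.0 CPM (−0.14 ± 0.05, adjusted p = 0.0432), a call that held in 3 of 14 alternatives. Its values in the repeats were 20.3, 22.1 and 25.9 against 19.5, 17.3 and 20.3 CPM and 32.4, 33.6 and 28.0 against 32.8, 32.3 and 36.2 CPM, again overlapping. A further gene covers 26.4% of the exon bases of BIRC5. AURKB, the kinase of the chromosomal passenger complex with survivin, fell in the first experiment (−0.27 ± 0.06, adjusted p = 0.00396) and had log2FC values of −0.49 and −0.31 in the repeats. PLK1 fell in the first as well (−0.33 ± 0.06, adjusted p = 0.00147).

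The 4 spindle motors and assembly factors likewise fell in the first experiment. CENPE, the motor that carries chromosomes to the spindle equator, had 112.5, 128 and 127 CPM against 91.4, 93.6 and 76.1 CPM (−0.49 ± 0.08, adjusted p = 0.00104). It had 167, 210.2 and 305 CPM against 144, 152 and 156 CPM in the second experiment (adjusted p = 0.103) and 82.2, 107 and 82.9 CPM against 69.7, 72.1 and 74.9 CPM in the third (adjusted p = 0.357). Its groups did not overlap in any experiment. KIF20A, a motor of late mitosis, moved least of the 4, from 157, 161 and 153 CPM to 143, 149 and 145 CPM (−0.11 ± 0.04, adjusted p = 0.0464), which held in 3 of 14 alternatives. In the repeats it had 23.7, 36.6 and 33.8 against 34.0, 32.6 and 33.2 CPM and 58.3, 71.9 and 49.6 against 57.8, 67.4 and 77.0 CPM, and the groups overlapped. KIF11 and TPX2, which push the spindle poles apart and nucleate its microtubules, fell by 0.35 and 0.19 on the log2 scale in the first experiment (adjusted p = 2.93e-04 and 0.00305).

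DNA synthesis and nucleotide supply gave 4 of 5 lower in the first experiment. PCNA, the sliding clamp of the replication fork, had 279, 265 and 301 CPM against 233, 237 and 223 CPM (−0.29 ± 0.05, adjusted p = 0.00119). It had 82.2, 170.3 and 185 CPM against 125, 138 and 142 CPM in the second experiment (−0.11 ± 0.22, adjusted p = 0.791) and 99.3, 174 and 119.6 CPM against 84.2, 102 and 117 CPM in the third (−0.37 ± 0.18, adjusted p = 0.318). The groups were separate in the first experiment and overlapped in the repeats. RRM2, a subunit of ribonucleotide reductase, fell most, from 279, 263 and 290.5 CPM to 219, 212 and 191 CPM (−0.42 ± 0.06, adjusted p = 2.26e-04), and its partner RRM1 fell as well (−0.37 ± 0.05, adjusted p = 1.76e-04). In the repeats RRM2 had 86.0, 138 and 121 against 101, 85.4 and 106 CPM and 165, 258 and 181 against 127, 175 and 194 CPM. DNMT1, which copies DNA methylation to the new strand, fell least, from 336, 335 and 338 CPM to 275, 278 and 290.2 CPM (−0.26 ± 0.04, adjusted p = 4.26e-04). Its values in the repeats were 123, 169 and 146 against 163, 135 and 134 CPM and 236, 322 and 249.5 against 193, 246 and 254 CPM. TYMS, the thymidylate synthase, was not called in any experiment.

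Of the origin licensing and replicative helicase genes, 6 of 11 fell in the first experiment (MCM2, MCM3, MCM5, MCM6, GINS1 and GINS2) and 5 did not pass. The lowest was GINS2, a subunit of the GINS complex, with 23.7, 24.1 and 24.4 CPM against 20.5, 19.9 and 20.9 CPM (−0.24 ± 0.05, adjusted p = 0.00611), and the least changed was MCM3, with 398, 404 and 417 CPM against 379, 378 and 337 CPM (−0.16 ± 0.05, adjusted p = 0.0351). MCM3 held its call in 7 of 14 alternatives and GINS1 in 5. In the repeats GINS2 had 5.39, 8.26 and 8.09 against 6.11, 7.10 and 7.61 CPM and 12.2, 19.2 and 14.1 against 9.83, 14.9 and 10.9 CPM, and MCM3 had 182, 256 and 249 against 233, 205 and 247 CPM and 255, 377 and 277 against 255, 313 and 341 CPM. All 4 of these pairs of groups overlapped. MCM4, another subunit of the helicase ring, showed 318, 318 and 315 CPM against 338, 345 and 337 CPM in the first experiment (0.10 ± 0.04, adjusted p = 0.0502) and 134, 176 and 171 CPM against 199, 181 and 197 CPM in the second (adjusted p = 0.384), with the ABCC1 libraries above the controls in both. MCM10, which helps to activate the helicase, had 81.4, 79.8 and 82.0 CPM against 85.6, 85.9 and 83.2 CPM in the first experiment, 30.9, 43.5 and 35.3 against 51.3, 39.6 and 51.3 CPM in the second and 57.7, 60.8 and 52.0 against 59.4, 79.8 and 78.6 CPM in the third (adjusted p = 0.217, 0.203 and 0.286). The groups of MCM10 overlapped in the repeats. CDT1, MCM4, MCM10 and E2F2 were the 4 members with a log2FC above 0 in all 3 experiments, as had 32.3% of the 16689 genes tested in every experiment.

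**Figure D2:**
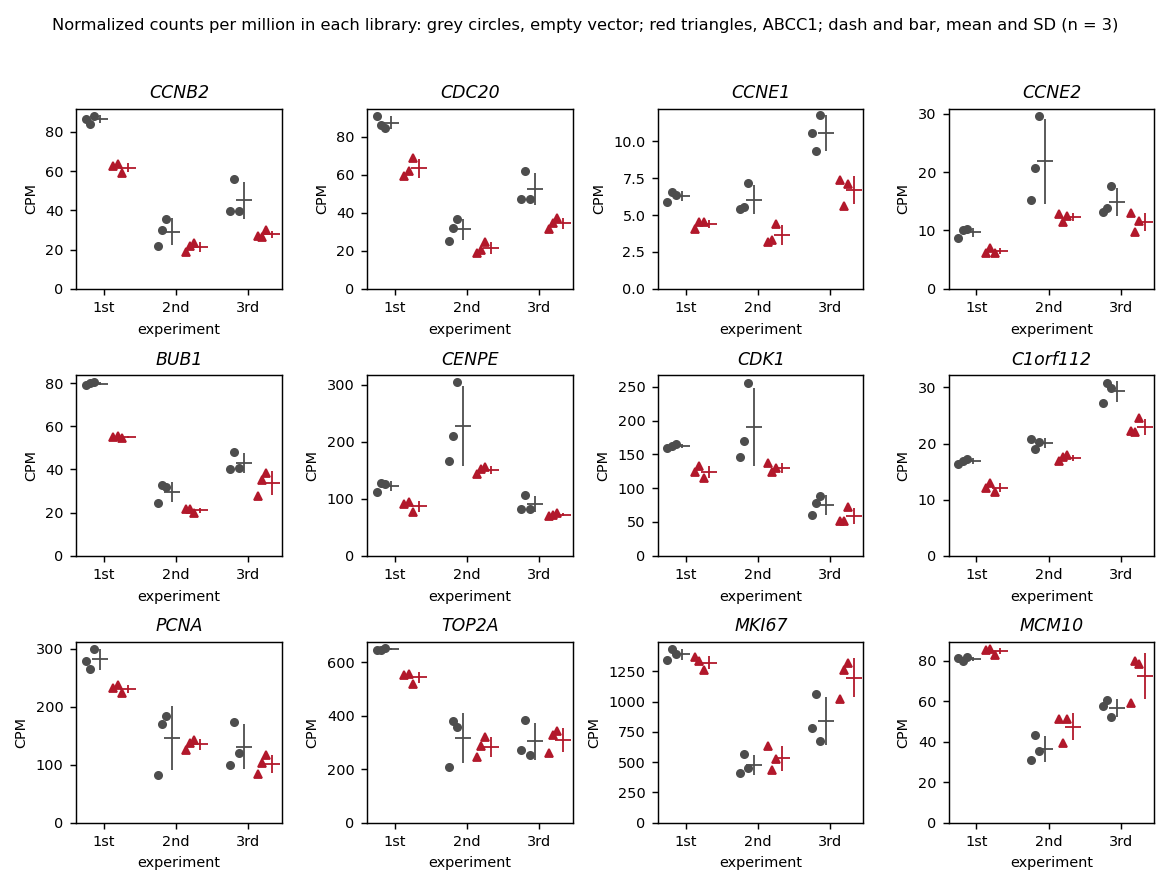
Normalized counts (CPM) of 12 members in each of the 18 libraries, by experiment (grey circles, empty vector; red triangles, ABCC1; dash and bar, mean and SD, n = 3; each panel has its own axis from 0). The libraries of CDC20, CCNE1, CCNE2, BUB1, CENPE and C1orf112 are separate in all 3 experiments, and those of MKI67 overlap in each.

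Of the 4 transcription factors, 2 were called. MYBL2 and FOXM1, which drive the G2 and M phase genes, fell in the first experiment, from 227, 222 and 233 CPM to 183, 180.2 and 199 CPM (−0.28 ± 0.05, adjusted p = 7.96e-04) and from 401, 409 and 405 CPM to 352, 351 and 384 CPM (−0.16 ± 0.05, adjusted p = 0.0172). The call of MYBL2 held in 13 of 14 alternatives and that of FOXM1 in 8. In the second experiment MYBL2 had 109, 145 and 152 against 127, 111.6 and 123 CPM and FOXM1 80.1, 108 and 97.1 against 99.8, 73.6 and 100.4 CPM. In the third they had 182, 268 and 224 against 174, 188 and 217 CPM and 172, 264 and 170.1 against 195, 225 and 233 CPM. Both overlapped in the repeats. E2F1 and E2F2, the activators of S phase genes, were not called in any experiment. ITFG2 shares 16.3% of the exon bases of FOXM1.

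Of the centromere and chromosome structure genes, TOP2A alone was called. TOP2A, the topoisomerase that untangles chromosomes before they part, had 647, 647 and 653 CPM against 554, 556 and 520.1 CPM in the first experiment (−0.26 ± 0.04, adjusted p = 8.32e-04), which do not overlap. It had 209.9, 380.0 and 359 CPM against 245, 287 and 320.3 CPM in the second and 273, 384 and 254 CPM against 259, 329 and 342 CPM in the third, both overlapping (−0.15 ± 0.21 and 0.03 ± 0.20, adjusted p = 0.689 and 0.965). MKI67, the gene of the proliferation antigen Ki-67, measured 1339.8, 1434 and 1395 CPM against 1365, 1335 and 1263 CPM in the first experiment (−0.07 ± 0.05, adjusted p = 0.258). It measured 412, 569 and 449 CPM against 636, 432 and 523 CPM in the second (0.15 ± 0.20, adjusted p = 0.673) and 784, 1063 and 674 CPM against 1017, 1263 and 1315 CPM in the third (0.51 ± 0.23, adjusted p = 0.246). Its groups overlapped in all 3, and by its adjusted p this common marker of proliferation was not called in either direction. CENPF and CENPA, which serve the kinetochore and the centromere, were not called either.

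C1orf112 was weakly expressed. At 2.66 CPM per kilobase of exon in the empty vector cells of the first experiment it ranked among the lowest members, just above CCNE2 (2.20) and CCNE1 (2.45), while PCNA (192), MCM3 (111) and MKI67 (109) were highest. It had 16.4, 17 and 17.3 CPM against 12.0, 12.9 and 11.4 CPM in the first experiment (−0.48 ± 0.07, adjusted p = 3.29e-04), 20.7, 19.1 and 20.3 against 16.8, 17.6 and 17.9 CPM in the second (−0.20 ± 0.16, adjusted p = 0.468) and 27.2, 30.8 and 29.9 against 22.3, 22.0 and 24.6 CPM in the third (−0.35 ± 0.16, adjusted p = 0.271). Every ABCC1 library lay below every control within each experiment, and the first alone passed the adjusted test. METTL18 and SCYL3 share 21.8% of its exon bases. In the empty vector cells of the third experiment the olfactory receptor level came to 34.4% of the level per kilobase of C1orf112 and to 46.5% of that of CCNE2, its highest share of any member there, and the part of background reads in these differences was not tested. The median share over the members was 8.63% in those cells and 3.94% in the empty vector cells of the second experiment.

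The repeat experiments called few members. In the second, 1 of 45 fell (CCNE2) and none rose, where 0.458% of 34091 genes tested were lower and 1.25% higher. In the third, 2 of 45 fell (CCNB2 and CDC20) and none rose, where 0.767% of 36509 genes were lower and 2.03% higher. Without empty vector replicate 2, 4 members were called higher in the third, and 1 was with DESeq2 and with total counts as library sizes. At an unadjusted p under 0.05, 8 members were lower and 1 higher in the second, against 10.7% and 10.6% of all genes. In the third, 9 were lower and 2 higher, against 7.63% and 7.58%. In the second experiment the groups were apart with ABCC1 below in 9 members and above in 2, against 16.4% and 13.5% of all genes, and in the third in 9 and 0, against 10.9% and 8.59%. Standard errors of the members ran from 0.04 to 0.10 in the first experiment, from 0.16 to 0.31 in the second and from 0.16 to 0.23 in the third.

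The median log2FC of the members was −0.12 in the second experiment and −0.16 in the third. For all genes tested it was −0.19 and −0.09, but these include many genes with few counts. Among genes whose mean level was at least that of the lowest member, the median was 0.21 over 12652 genes in the second and 0.06 over 13102 in the third. These offsets depend on the scaling. With total counts as library sizes, the median of all genes moved to −0.39 and −0.22 and that of the members to −0.31 and −0.28, and 4 and 14 members were then called lower, against 0.343% and 2.54% of all genes. With RLE size factors the medians of the members were −0.02 and −0.09. Leaving out each library in turn gave member medians from −0.25 to −0.0067 in the second experiment and from −0.22 to −0.025 in the third. With the olfactory receptor level as a covariate, 0 members were lower in the second and 9 in the third, where 5 and 599 of all genes were.

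**Figure D3:**
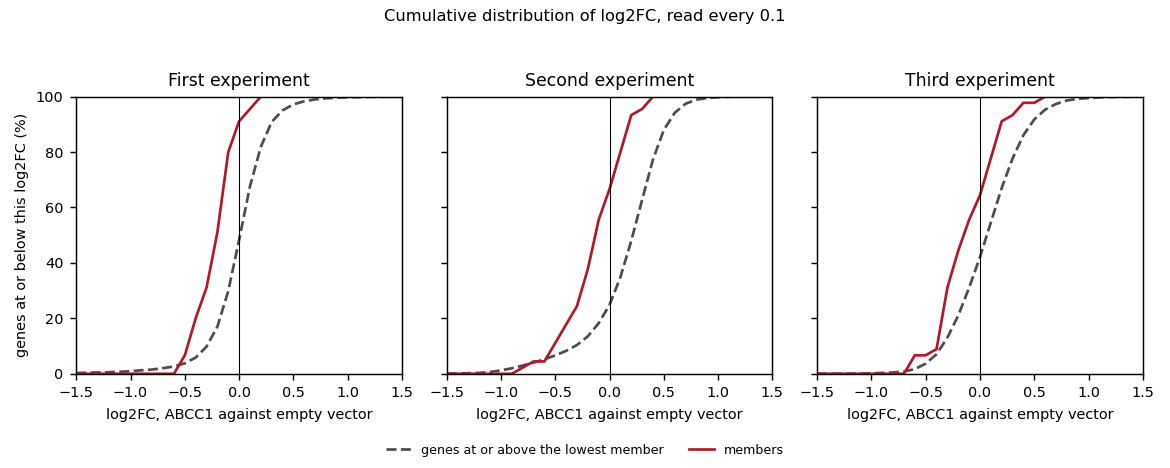
Cumulative percentage of genes at or below each log2FC, for the 45 members (red line) and for all genes at or above the level of the lowest member (dashed grey; 10924, 12652 and 13102 genes). At a log2FC of −0.2 the members stand at 51.1, 37.8 and 44.4% and the other curve at 17, 13.5 and 21.0% in the first, the second and the third experiment.

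A log2FC below 0 in all 3 experiments was found for 23 members and for 17.6% of the 16689 genes tested in every experiment, where MCM3 is counted at −0.0050 and −0.00055 in the repeats. These signs were not recomputed under other scalings. The libraries did not overlap and lay below in all 3 for 6, which are CCNE1, CCNE2, BUB1, CDC20, CENPE and C1orf112, and in at least 2 for 11, against 1.52% and 8.13% of those genes. CCNB2, CDC20 and CCNE2 were called in 2 experiments each, 29 members in the first alone and 13 in none. Whether the effect of ABCC1 differed between the experiments was tested as an interaction in a fit of all 18 libraries. None of the 45 members passed (edgeR, smallest adjusted p = 0.696, and 0 at an unadjusted p under 0.05), and DESeq2's likelihood ratio test also called 0, where 1.19% of 46225 genes were called and 9.04% had an unadjusted p under 0.05. A miss in this test does not show equal effects. The simulated data recovered 70.5% of the differences built into them. Those were 2-fold, larger than the difference of any member from the first experiment, and the spread was the same in every experiment. The share recovered for smaller differences, or at the spreads of these libraries, was not simulated. Calls in the first experiment and misses in the repeats are thus not shown to differ.

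The mean of the 3 effects, each experiment weighted equally in this fit, was lower for 9 members and higher for 1. Of all 46225 genes, 3.55% were lower and 9.39% higher. Since the first experiment and a repeat may share stable lines, the mean need not rest on 3 independent pairs of lines. The lower members were CCNE1 (−0.57 ± 0.13, SE, adjusted p = 7.72e-04), CCNE2 (−0.54 ± 0.10), CCNB2 (−0.48 ± 0.09), CDC20 (−0.47 ± 0.09), CENPE (−0.41 ± 0.10), BUB1 (−0.39 ± 0.09), CDK1 (−0.37 ± 0.10), AURKB (−0.29 ± 0.10) and C1orf112 (−0.28 ± 0.08, adjusted p = 0.0153). By role, 4 of the 7 cyclins and kinases and 2 of the 5 checkpoint genes were among them, and no gene of DNA synthesis, licensing or transcription. MCM10 was the higher one (0.33 ± 0.09, adjusted p = 0.00775). Its log2FC was 0.07, 0.37 and 0.35 in the experiments' own fits, which are scaled otherwise than the fit of all libraries. Its call was lost when 10 counts were required in every library (adjusted p = 0.0618). The calls of CCNE1, CCNE2, CCNB2, CDC20, CENPE and BUB1 held in 23 of 23 alternatives, that of MCM10 in 22 and that of AURKB in 10. The number of lower members ranged more widely, with 17 under RLE size factors, 20 with DESeq2 and 32 when 10 counts were required in every library. The shares of all genes called lower under these settings were 5.01%, 5.75% and 20.3%.

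**Figure D4:**
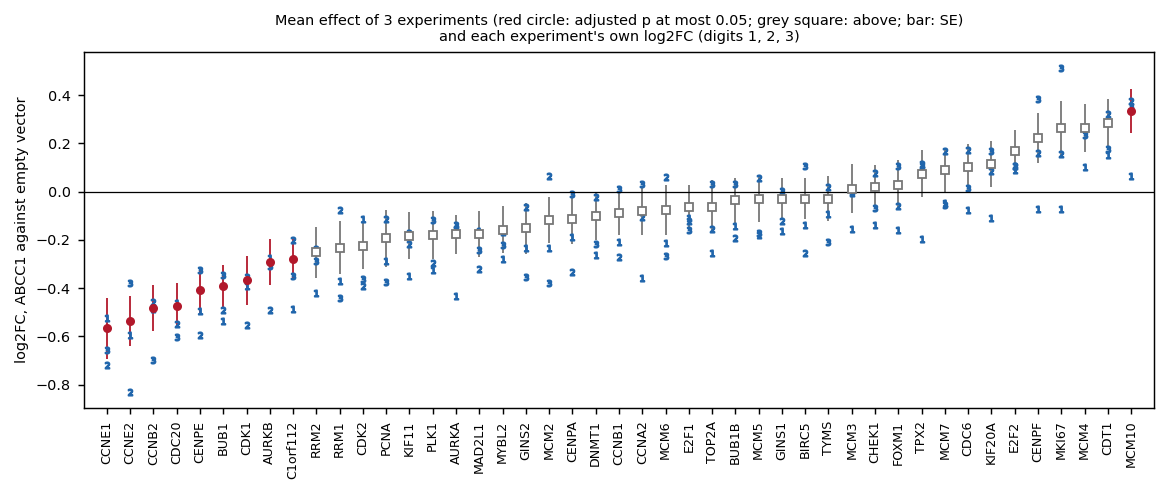
Mean log2FC of the 3 experiments with its standard error for the 45 members, in order (red circles, adjusted p at most 0.05; open squares, above), with the log2FC from each experiment's own fit as the digits 1, 2 and 3. The 9 lower calls end at C1orf112 and the 1 higher call is MCM10 at the right, where MKI67 shows the widest scatter of digits.

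Other cell cycle genes, 162 that are not members were tested alongside. For the first experiment, 73 of 161 tested were lower and 9 higher, which came to 43 lower and 1 higher of 66 mitosis genes, 15 and 2 of 43 DNA replication genes, 9 and 2 of 27 G1 control genes, and 6 and 4 of 25 recombination and fork protection genes. Of all genes tested, 19.7% were lower and 17.9% higher, which the last list stands close to at 24% and 16%. The lowest were CDKN1A, CDC25B and CENPI (log2FC −1.20, −0.73 and −0.72). The highest were PALB2, EME1 and POLD1 (0.40, 0.30 and 0.26), which serve recombination and the synthesis of the lagging strand. In the second experiment 1 of 162 was lower, HMMR (−0.96 ± 0.19, adjusted p = 0.0179), and none higher. In the third 6 were lower and 5 higher, beside 0.767% and 2.03% of all genes, and the higher count ran from 0 to 15 over the alternatives. Of the called genes, TIMELESS, HMMR and CDKN1A were lowest (−0.91, −0.89 and −0.83) and CDKN2C, DBF4 and DTL were highest (0.73, 0.62 and 0.61). HMMR, a spindle protein, was called lower in each of the 3 experiments. Its call in the second held in 11 of 14 alternatives and was lost with the olfactory receptor level as a covariate (adjusted p = 0.149) and without empty vector replicate 3 or ABCC1 replicate 2.

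CDKN1A, which encodes p21, a brake on the cyclin-dependent kinases, had 252, 243 and 231 CPM against 104, 99.5 and 113 CPM in the first experiment (adjusted p = 7.57e-08) and 69.3, 104 and 80.3 CPM against 38.6, 55.9 and 48.2 CPM in the third (adjusted p = 0.00103). The groups were separate in both. In the second it had 27.1, 47.3 and 42.5 CPM against 27.9, 30.4 and 31.5 CPM (−0.38 ± 0.18, adjusted p = 0.219), with overlap. CCND1, the cyclin of early G1, fell in the first experiment (−0.26 ± 0.06, adjusted p = 0.00551) and had log2FC values of 0.38 and 0.26 in the repeats, and E2F7, a repressor of S phase genes, fell in the first (−0.29 ± 0.06, adjusted p = 0.00507) with −0.18 and −0.26 in the repeats. Neither was called in the repeats.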

How the data were processed

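The authors aligned the reads with STAR 2.7.3a and deposited raw counts of read pairs per gene, without normalization, made with featureCounts (Subread 2.0.0) over the exons of GRCh37 genes and of the vectors, without strand, multi-mapping or overlap options. Each of the 18 libraries holds 57905 Ensembl genes, 92 spike-in controls, left out here, and 6 vector sequences, kept in the fits and left out of gene counts. For the first experiment the labels name 2 library kits, and the one in the study's methods was used.

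Each experiment was fitted in R 4.3.3 with edgeR 4.0.16, using TMM, filterByExpr at a minimum count of 10 and the robust quasi-likelihood test. P-values were two-sided and Benjamini-Hochberg adjusted over all features tested, and genes were called at an adjusted p of at most 0.05. The standard error is the log2FC over the root of F, and CPM is scaled by TMM within an experiment. A fit of all 18 libraries gave the interaction and the mean effect. On simulated data with 200 changed genes, the fits recovered 97.5, 96.5 and 96.5% in the 3 experiments and 70.5% of differences between them. The changes built in were larger than that of any member, lay in well counted genes and had the same spread in every experiment. These shares therefore do not say how often changes as small as those of the members would be found. Pairs of replicates differed beyond sampling noise, with a chi-square of 1.53 to 26.1 per degree of freedom.

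The members, the other gene lists and the tests were chosen with earlier results of these data known. Values of every library are given for MKI67, TOP2A, PCNA, C1orf112, members called in 2 or more experiments and the called members with the highest and lowest log2FC of each role. Beyond these rules, they are given for CCNE1, CDK1 and MCM10, and for MCM4 in 2 experiments. From the other lists, up to 3 highest and 3 lowest called genes per experiment are named, with CDKN1A, CCND1 and E2F7 in any case. Alternatives were DESeq2 1.42.0, RLE size factors, other filters on low counts, the replicate number as a block, the contrasts of the 18-library fit, the olfactory receptor level as a covariate, the repeats alone and each library left out. Total counts as library sizes were added after the data were seen. The level of a marker gene is not reported here.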

Additional observations from a re-analysis of the deposited data

How the results depend on the processing

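No called log2FC changed sign. With the olfactory receptor covariate, the median of all genes in the second experiment moved from −0.19 to 0.08. In the first experiment, the 32 lower members became 0 in the contrast of the 18-library fit, where spread, scaling and genes tested all changed, and 15 with the olfactory receptor covariate, and the 73 lower other cell cycle genes became 3 and 24. The 9 higher other genes became 1 and 0. A higher member appeared with no filter (1) and with total counts (1). In the second, the 1 lower member became 5 with 10 counts or more in each library, 6 in the 18-library fit, 0 with the covariate and 4 with total counts. The 1 lower other gene became 3 with DESeq2, 4 with no filter, 5 with at least 10 counts, 10 in the 18-library fit, 0 with the covariate and 3 with total counts, and the 0 higher became 5 with DESeq2 and 5 in the 18-library fit. In the third, the 2 lower members became 1 with RLE, 1 in the 18-library fit, 9 with the covariate and 14 with total counts, and the 0 higher became 1 with DESeq2 and 1 with total counts. The 5 higher other genes became 10 with DESeq2, 9 with at least 10 counts, 10 in the 18-library fit, 0 with the covariate and 9 with total counts, and the 6 lower became 26 with the covariate and 25 with total counts. In the joint fit, the 9 lower members became 17 with RLE, 32 with at least 10 counts and 20 with DESeq2, and the 1 higher became 0 with at least 10 counts. The repeats alone gave 6 lower and 1 higher. The cause of these shifts was not tested.

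Without each library in turn, lower members ranged from 25 to 34 in the first experiment, from 0 to 2 in the second (2 without empty vector replicate 1, 0 without empty vector replicates 2 or 3 or ABCC1 replicate 2) and from 0 to 2 in the third (0 without ABCC1 replicate 2). Higher members ranged from 0 to 1 (1 without ABCC1 replicate 3), stayed at 0, and ranged from 0 to 4 (4 without empty vector replicate 2). Lower other genes ranged from 59 to 83, from 0 to 6 and from 3 to 6, and higher ones from 5 to 12, at 0 and from 0 to 15. In the joint fit lower members ranged from 7 to 12, higher ones from 1 to 5, and differing ones stayed at 0.

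The replicate numbers run from 1 to 3 in each group. Deviations of same-numbered libraries had mean correlations of −0.12, −0.10 and 0.06, against 0.06, 0.05 and −0.03 for other pairs, and 3 of 18 libraries correlated best with their own number, so no pairing was seen in the data. The labels do not say whether a number stands for a week of plating. With the replicate block, lower members numbered 26, 1 and 2, lower other genes 63, 2 and 9 and higher ones 7, 0 and 8, and the joint fit gave 9 lower and 1 higher.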

Other observations

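The replication-dependent histone genes were chosen after the values were seen. These 33 genes package newly made DNA, and most of their transcripts lack a poly(A) tail. In the first experiment they took 0.0145 to 0.0155% of the counts in the empty vector cells and 0.0173 to 0.0174% in the ABCC1-overexpressing cells, and of 16 tested 4 were higher and 0 lower (edgeR's quasi-likelihood test), against 17.9% and 19.7% of all genes. In the second experiment the share was 0.920 to 1.21% against 0.592 to 0.734%, and of 31 tested 0 were higher and 4 lower, against 1.25% and 0.458% of all genes. In the third it was 0.850 to 0.950% against 0.693 to 0.772%, with 0 higher and 2 lower of 31, against 2.03% and 0.767%. The shares did not overlap between the lines in any experiment, and the olfactory receptor level was higher in the empty vector cells of each. Its part in these values was not tested, and many histone genes are near-identical copies whose reads cannot be told apart with certainty.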
